A study of Mus musculus with 2 samples.

Results

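The genes described here are 107 mouse protein-coding genes of clustered preimplantation and reproductive families, out of 21887 on chromosomes 1 to 19, X and Y. They were chosen by symbol alone: those starting with Zscan4 (4 genes), Tcstv (2), Usp17l (5), Tdpoz (8), Obox (6), Pramel (47) or Rhox (33), with Zfp352 and Gm4340. No RefSeq symbol started with Pramef. Binding of DPPA2 was read by ChIP-seq, which sequences DNA pulled down with an antibody to a protein, in the mouse embryonic stem cell line R1/E, labelled wild type and described as p53+/+. Cultures were kept on gelatin, with LIF in the medium. The first group was untreated and the other received adriamycin (doxorubicin, which breaks DNA by trapping topoisomerase) for 8 h, with 1 library each. The treated sample's genotype field holds only its treatment, so its genotype was read from the design text. The design asks where DPPA2 is bound after DNA damage. ChIP-seq peaks give no transcript levels, so the labelled cell type could not be checked against its markers.

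Since each group is a single library, no test of the treatment was possible, and every difference given below is one between 2 libraries. The files hold called peaks, 7043 for the untreated library and 16229 for the adriamycin library. A gene counted as having a gene-end peak when a peak's summit, its highest position, lay within 1 kb of either end. Depth behind a peak is given as fragments at its summit (pileup), recovered from the authors' fold enrichment and p-value. The median peak had 14 fragments in both lists. Intervals are 95% intervals and, like the limits that a count of 0 allows, cover counting error only.

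DPPA2 binds DNA in pluripotent cells and the germ line, as a partner of DPPA4. In embryonic stem cells the pair is known for activating Dux, whose product turns on the genes of the 2-cell embryo in a small share of cells. Several of the families here belong to that program: ZSCAN4 proteins act in telomere maintenance, and the Tcstv genes and the zinc finger gene Zfp352 are marks of the 2-cell stage. Usp17l genes encode deubiquitinating enzymes, Tdpoz genes proteins with MATH and POZ domains, and Pramel genes leucine-rich repeat proteins related to PRAME. Obox genes encode homeobox factors of the oocyte and early embryo, and Rhox genes X-linked homeobox factors of testis, ovary and placenta. Most of these families grew by tandem duplication, so that members lie side by side and can be near copies; Zfp352 stands alone.

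Promoter sequences were at hand for 86 of the 107 genes, from RefSeq on GRCm38.p6, each running 250 bases before to 50 after the most upstream start. The 5 below stand for the members that the results turn on: the only gene with a gene-end peak, the 2-cell genes Zscan4c and Zfp352, and the 2 members with a promoter entry and a summit between 1 and 2.5 kb. Capitals mark CpG dinucleotides, except in Zfp352, where they mark TAATCC, the core bound by paired-like homeobox factors of the OTX and CRX type.
Gm4340, plus strand, chr10:104193792-104194091: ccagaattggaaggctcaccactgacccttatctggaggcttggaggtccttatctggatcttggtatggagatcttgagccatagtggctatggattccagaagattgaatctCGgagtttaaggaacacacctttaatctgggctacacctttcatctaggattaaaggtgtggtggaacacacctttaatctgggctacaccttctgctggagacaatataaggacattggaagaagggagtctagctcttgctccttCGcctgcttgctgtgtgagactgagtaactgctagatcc
Zscan4c, plus strand, chr7:11005495-11005794: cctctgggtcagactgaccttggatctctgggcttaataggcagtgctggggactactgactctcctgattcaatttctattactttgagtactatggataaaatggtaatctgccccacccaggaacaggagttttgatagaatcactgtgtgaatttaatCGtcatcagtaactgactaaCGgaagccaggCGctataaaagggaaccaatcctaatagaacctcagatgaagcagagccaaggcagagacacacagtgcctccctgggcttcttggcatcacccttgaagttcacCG
Zfp352, plus strand, chr4:90218570-90218869: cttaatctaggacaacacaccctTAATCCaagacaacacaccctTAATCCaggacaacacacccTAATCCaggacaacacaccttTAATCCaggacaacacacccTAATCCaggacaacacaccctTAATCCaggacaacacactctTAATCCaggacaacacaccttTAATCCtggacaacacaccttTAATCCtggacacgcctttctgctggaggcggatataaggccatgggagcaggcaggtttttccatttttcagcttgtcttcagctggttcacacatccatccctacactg
Pramel20, plus strand, chr4:143567217-143567516: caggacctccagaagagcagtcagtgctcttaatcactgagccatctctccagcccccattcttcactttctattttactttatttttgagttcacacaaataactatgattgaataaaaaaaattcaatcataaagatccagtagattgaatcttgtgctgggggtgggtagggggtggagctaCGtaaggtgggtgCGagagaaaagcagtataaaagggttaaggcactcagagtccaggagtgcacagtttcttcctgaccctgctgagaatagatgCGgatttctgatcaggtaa
Rhox3c, plus strand, chrX:37469618-37469917: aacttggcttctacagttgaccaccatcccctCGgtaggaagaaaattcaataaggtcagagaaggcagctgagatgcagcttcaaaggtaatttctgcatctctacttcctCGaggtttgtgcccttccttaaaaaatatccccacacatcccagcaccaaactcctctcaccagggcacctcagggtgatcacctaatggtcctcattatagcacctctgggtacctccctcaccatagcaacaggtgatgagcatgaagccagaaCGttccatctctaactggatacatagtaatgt
These windows hold 2, 4, 2, 3 and 3 CpG dinucleotides. The Zfp352 promoter holds TAATCC 9 times on the printed strand, in a repeated unit.

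DPPA2 peaks were almost missing from the ends of these genes. Of the 107 members 1 (0.935%, interval 0.0237 to 5.10%) had a gene-end peak in the untreated list, against 5.78% of all protein-coding genes. In the adriamycin list it was again 1 (0.935%), against 16.0% of all genes. The same gene, Gm4340, was called in both. At the rates of all genes, 107 genes would hold 6.19 and 17.2 such members. Within 2.5 kb the members numbered 2 (1.87%, 0.227 to 6.59%) untreated, against 7.57% of all genes, and 4 (3.74%, 1.03 to 9.30%) with adriamycin, against 20.6%. Members of a cluster share peaks and sequence, so they are not independent and the intervals are too narrow. Over all genes the count within 1 kb was 1266 untreated and 3510 with adriamycin. For the members it was 1 in both, resting on Gm4340 alone, but farther out their counts differed too. Within 10000 bp the members' share was 5.61% untreated and 10.3% with adriamycin, beside 13.9% and 34.2% of all genes.

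**Figure D1:**
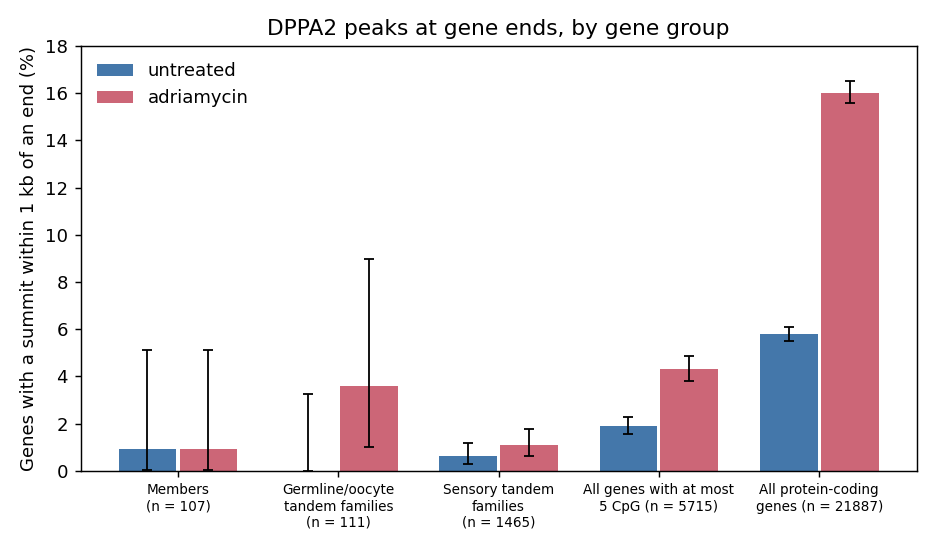
Share of genes (%, vertical axis) with a DPPA2 summit within 1 kb of an end, in the untreated and adriamycin libraries (1 each), for the members, 2 sets of other tandem families, genes with at most 5 CpG in the promoter window, and all protein-coding genes. Bars are shares and lines exact 95% intervals; the members stand at 0.935% in both libraries and all genes at 5.78% and 16.0%.

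Gm4340 lies last in a row of 7 evenly spaced genes on chromosome 10 (104194042 to 104196522), and its peak lay past its far end. The untreated peak, 104196714 to 104196938, had its summit 304 bp beyond the gene's higher-coordinate end, with a fold of 4.92 and 11 fragments at the summit (5.49 to 19.7). The adriamycin peak, 104196735 to 104197107, had its summit 351 bp beyond the same end, with a fold of 4.59 and 9 fragments (4.12 to 17.1). Both were weak peaks, below the median fold of their lists (5.16 and 5.10). The gene runs on the plus strand, so this end is the one opposite its start. The other 6 genes of the row (Gm21293, Gm6763, Gm8764, Gm21304, Gm21312 and Gm20765) lie 8509 or 8510 bp apart from start to start. They had no summit within 1 kb, and the nearest one was that same peak, 8826 bp from Gm20765 and 51399 bp from Gm21293 untreated. Promoter windows of 5 of these 6 were at hand, and each differed from that of Gm4340 by 1 base or by 0 in 300.

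No other member had a gene-end peak. In the list of starts alone, 0 of the 86 members with a known start had a summit within 1 kb of it in either library, against 5.91% of all genes with a start untreated and 15.8% with adriamycin. Another 4 members had a summit between 1 and 2.5 kb, each in 1 library only. Tdpoz2 (chromosome 3, 93651542 to 93652686) had an adriamycin summit 1381 bp beyond its higher-coordinate end, with a fold of 3.85 and 13 fragments (6.92 to 22.2), and its nearest untreated summit was 38612 bp away. The local background there was 2.57 times the genome-wide value. Obox6 (chromosome 7, 15833250 to 15839679), a homeobox gene, had an adriamycin summit inside the gene, 1252 bp from its higher-coordinate end, with a fold of 4.35 and 11 fragments (5.49 to 19.7). Its nearest untreated summit was 101847 bp away. Rhox3c (chromosome X, 37469868 to 37473961) had an adriamycin summit 1950 bp before its start, with a fold of 4.93 and 9 fragments, and its nearest untreated summit was 160414 bp away. Pramel20 (chromosome 4, 143567467 to 143573798) went the other way, with an untreated summit inside the gene, 1713 bp from its higher-coordinate end, a fold of 5.93 and 12 fragments (6.20 to 20.96). Its nearest adriamycin summit was 253680 bp away. These 4 peaks rest on 9 to 13 fragments, and no replicate shows whether they would be called again.

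The Zscan4 genes and Zfp352 had no summit near an end. The 4 Zscan4 genes lie on chromosome 7 between 10900740 and 11402318, a span of 502 kb with 0 summits in both lists; a count of 0 there allows up to 7.35 summits per Mb by the exact Poisson interval. The nearest untreated summits were 222416 bp from Zscan4b, 327421 bp from Zscan4c, 416294 bp from Zscan4d and 180124 bp from Zscan4f. With adriamycin the distances were 222470, 327475, 416412 and 180242 bp, to peaks at the same 2 positions. The peak above Zscan4f, 11582281 to 11582868 untreated, had a fold of 6.99 and 19 fragments (11.4 to 29.7). In the adriamycin list it was at 11582386 to 11582941, with a fold of 11.7 and 32 fragments (21.9 to 45.2). The peak below Zscan4b had 18 fragments untreated and 11 with adriamycin. Zfp352 (chromosome 4, 90218820 to 90225687) had its nearest summits 67137 bp away untreated and 67132 bp with adriamycin, at 1 peak called in both lists with 13 and 15 fragments.

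Tcstv1 and Tcstv3 (chromosome 13, 119893387 to 119894785 and 120316862 to 120318261) had no summit near an end, but the stretch between them held a group of peaks. The nearest summits were 130897 bp from Tcstv1 and 274985 bp from Tcstv3 untreated, and 71296 and 146609 bp with adriamycin. Between the genes lay 4 untreated and 7 adriamycin summits. Of these, 3 and 4 lay at most 619 bp from the predicted gene Gm36079 (120026284 to 120027379) or inside it, all called in both lists. The untreated pileups there were 27, 33 and 37 fragments and the adriamycin pileups 28, 26, 25 and 35, the highest in any of the clusters apart from 1 Tdpoz peak. Their folds were only 4.44 to 6.45, over a local background of 4.44 to 4.71 times the genome-wide value. Without an input profile used here, a high local background and DPPA2 binding cannot be told apart at these peaks.

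In the larger families the nearest peaks were mostly outside the genes, at distances that differed between families. The median distance from a Pramel gene to the nearest summit was 163 kb untreated and 155 kb with adriamycin, and for the Rhox genes 95.3 and 48.8 kb. It was 93.3 and 45.3 kb for Obox, 63.4 and 33.3 kb for Tdpoz, and 23.3 and 30.2 kb for the Usp17l genes. Over all members the medians were 115 and 69.5 kb, against 93.2 and 24.7 kb over all protein-coding genes. Of these larger families, only Pramel had an untreated median well above that of all genes. Obox and Rhox stood close to it, and Tdpoz and Usp17l below it. The small Zscan4 and Tcstv families, with untreated medians of 275 and 203 kb, also stood well above it. With adriamycin the medians of these families were all above it. The members thus lay nearly as close to a peak as other genes at the scale of 100 kb in the untreated list, where 47.7% of members and 51.9% of all genes had a summit that near. In the adriamycin list the shares at 100 kb were 65.4% and 81.4%. The 107 members had only 36 distinct nearest peaks untreated and 41 with adriamycin. In each list 0 of 47 Pramel genes and 0 of 33 Rhox genes had a gene-end peak. By the exact interval these counts allow shares of up to 7.55% and 10.6%. The untreated share of all genes, 5.78%, lies inside both limits, and the adriamycin share, 16.0%, lies above both. Members of a cluster are not independent, so these limits are too low.

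**Figure D2:**
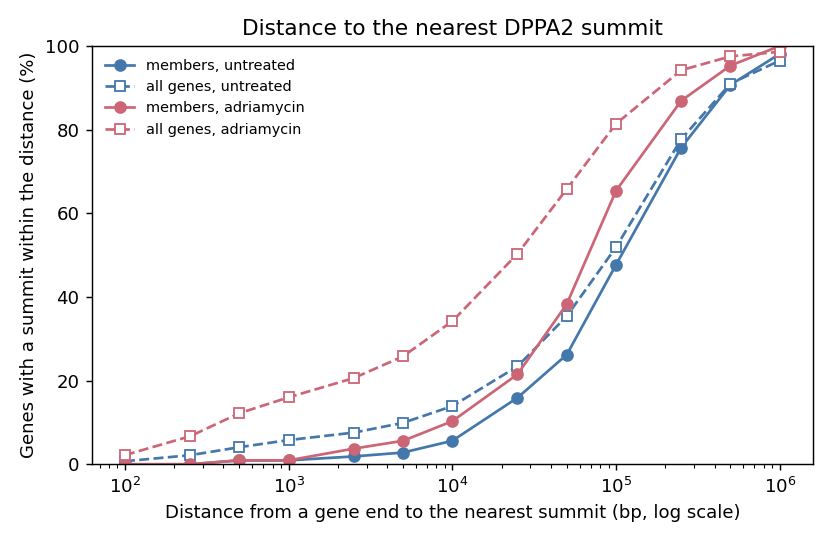
Share of genes (%, vertical axis) with a summit within a given distance of a gene end (bp, log scale), for the 107 members (filled circles) and all protein-coding genes (open squares) in each library. At 1 kb the members stand at 0.935% in both libraries; at 500 kb they stand at 90.7% and 95.3%, beside 91.0% and 97.5% of all genes.

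The spans of the clusters, genes and the DNA between them, did hold peaks. Members of a family with gaps of at most 500 kb formed 12 clusters, holding 101 members in 6.42 Mb. There were 21 untreated summits in these spans, 3.27 per Mb (2.03 to 5.00), against 2.59 per Mb over all chromosomes. The adriamycin list had 31, 4.83 per Mb (3.28 to 6.86), against 5.96. Both genome-wide densities lay inside the interval of the spans. The parts of the spans within 1 kb of a member's end came to 371 kb, and 0 summits of either list fell there. At the density of the spans themselves that length would hold 1.21 and 1.79 summits. Within 2.5 kb of an end, 862 kb held 1 and 3 summits, where the spans' density gives 2.82 and 4.16. The bodies of members held 2 summits in each list, in Pramel20 and Pramel35 untreated and in Obox6 and Rhox7a with adriamycin.

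Clusters differed in how many peaks they held. The 2 large Pramel clusters, 20 genes on chromosome 4 (143394441 to 144408467) and 18 on chromosome 5 (93481827 to 95736173), had 2 and 4 summits, the same numbers in both lists. On chromosome 5 that is 1.77 per Mb (0.483 to 4.54), an interval that includes the genome-wide 2.59 of the untreated list and lies below the 5.96 of the adriamycin list. The Rhox cluster (chromosome X, 37213804 to 38129966) had 2 untreated and 4 adriamycin summits, 2.18 and 4.37 per Mb. The Tdpoz cluster (chromosome 3, 93651542 to 94072644) had 3 and 6, or 7.12 (1.47 to 20.8) and 14.2 per Mb. The Tcstv span had 9.41 (2.57 to 24.1) and 16.5 (6.62 to 33.9) per Mb, and its adriamycin interval lies above the genome-wide value. Of its 7 adriamycin summits, however, 4 lay close together at Gm36079. The interval counts them as independent and is therefore too narrow. The Obox cluster (chromosome 7, 15388851 to 15839679) had 3 and 4 summits. Beside the 12 clusters compared, single intervals that miss the genome-wide value carry no correction for their number.

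**Figure D3:**
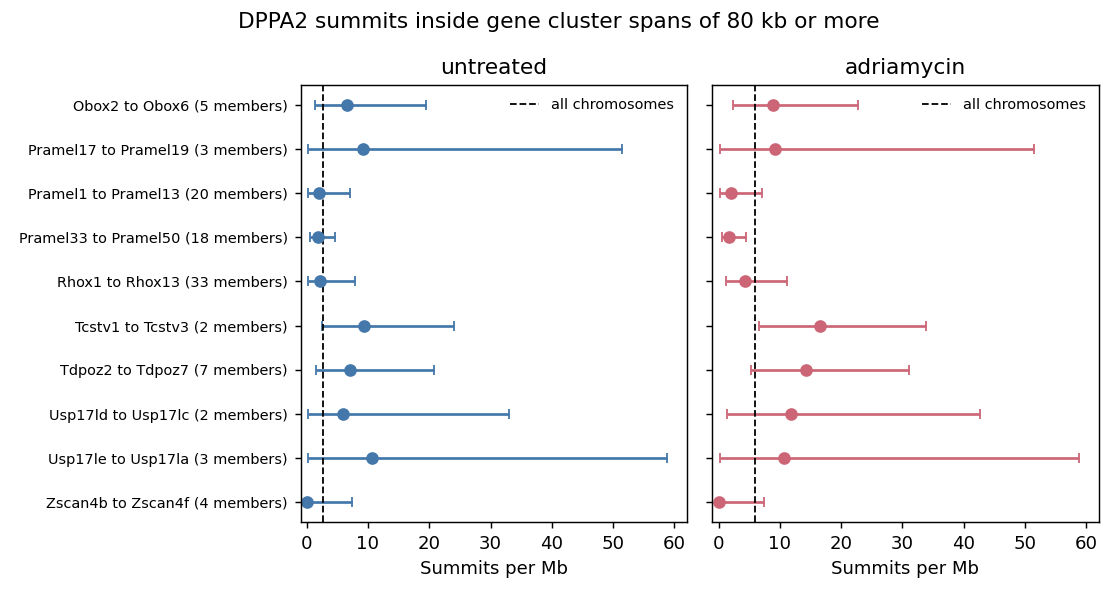
Summits per Mb (horizontal axis) inside the 10 cluster spans of 80 kb or more, in the untreated (left) and adriamycin (right) libraries. Points are densities, lines exact 95% Poisson intervals, and the dashed line is the density over all chromosomes (2.59 and 5.96 per Mb); the Zscan4 span stands at 0 in both.

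Untreated peaks in the clusters were called again with adriamycin about as often as those of the whole untreated list. Of the 21 untreated summits in the spans 17 (81.0%) belonged to a peak that overlapped an adriamycin peak, beside 79.7% of the whole untreated list. Of the 31 adriamycin summits 18 (58.1%) overlapped an untreated peak, beside 34.4% of the whole adriamycin list. Of these 18, 4 lay close together at Gm36079, and no interval was computed for the share. The peaks were of usual strength, with a median fold of 5.88 untreated (3.91 to 7.86) and 5.34 with adriamycin (3.85 to 8.38), beside list medians of 5.16 and 5.10. Their median pileups were 12 and 13 fragments, with a range of 8 to 37 and of 8 to 41. None counted as high local background, a limit set at 5 times the genome-wide value. The summits at Gm36079, at 4.44 to 4.71 times, fell just under that limit.

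Pileups at most of the 17 shared pairs could not be told apart between the libraries. Scaled to each library's genome-wide background, the adriamycin over untreated ratio was above 1 at 12 pairs and below 1 at 5, with a median of 1.20, beside 1.32 over all 5609 shared pairs. At 16 of the 17 pairs the counting interval of the ratio included 1. With so few fragments these intervals are wide, so they do not show that the pileups were equal. The exception was a peak 43720 bp from Tdpoz3, 93870704 to 93871062 untreated and 93870487 to 93870997 with adriamycin. It had 23 fragments (14.6 to 34.5) and 41 (29.4 to 55.6), with folds of 4.598 and 8.30, a ratio of 2.07 (1.21 to 3.61). Its local background was 3.54 and 3.95 times the genome-wide value. A peak 6554 bp from Usp17lb had 9 and 18 fragments, a ratio of 2.32 (0.990 to 5.86). A peak 4737 bp from Rhox2g had 11 and 18 fragments, a ratio of 1.90 (0.849 to 4.45). The lowest ratio, 0.718, was at a peak 12795 bp from Pramel19 with 21 and 13 fragments. The intervals are not corrected for the 17 pairs, and without a replicate a change at that site is not established.

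**Figure D4:**
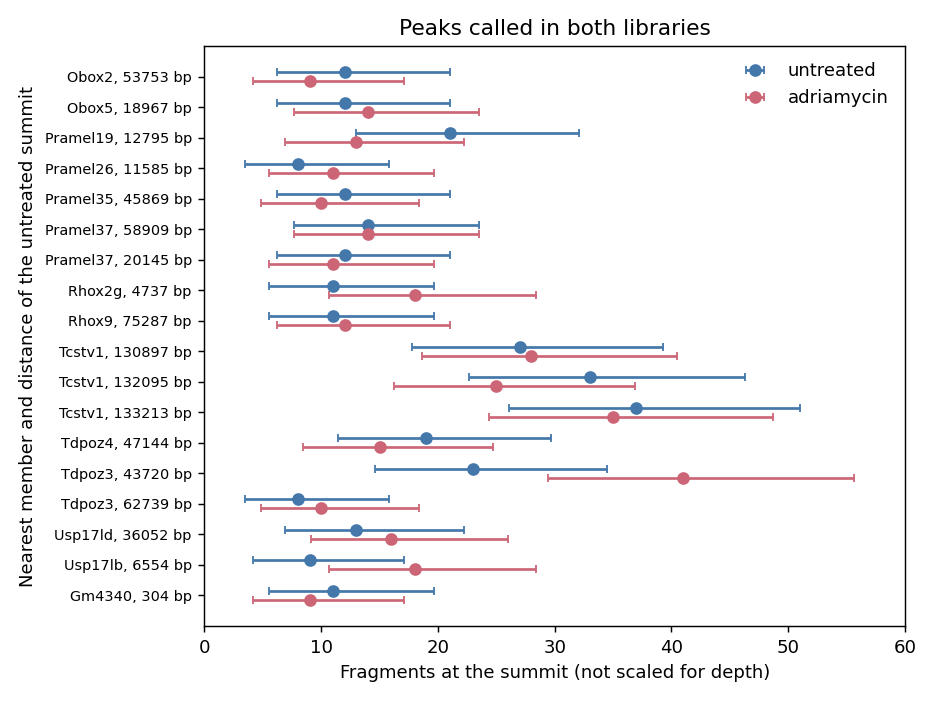
Fragments at the summit (horizontal axis, not scaled for depth) of the 17 peaks in cluster spans and the Gm4340 peak that were called in both libraries, named by the nearest member and its distance. Lines are exact 95% Poisson intervals; the intervals of the 2 libraries overlap at every peak, and the largest pileup is 41 fragments near Tdpoz3.

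The promoters of the members are poor in CpG, as the printed sequences show. Over the 86 members at hand the median was 2 CpG per 300 bases (quartiles 1 and 4, range 0 to 20), against 13 (4 and 24) over 17492 genes with a promoter. Genes with a gene-end peak had a median of 24 in both lists. At most 5 CpG were found in 68 members (79.1%) and in 32.7% of all genes. These 68 included all 4 Zscan4, 4 Usp17l, 6 Tdpoz and 5 Obox promoters at hand and 35 of 38 Pramel promoters. The Rhox promoters were richer, with a median of 7, and 12 of 27 had at most 5. Rhox4 copies had the most, with 12 CpG in Rhox4a, and Rhox3 copies fewer, with 3 in Rhox3c. Pramel1 had 20 CpG, the highest number of any member at hand, and its nearest summits lay 172266 and 181968 bp away.

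Read against genes with equally few CpG, at most 5, the members' share stood closer to the background. Of all genes with at most 5 CpG, 1.89% (1.55 to 2.28%) had a gene-end peak untreated and 4.30% (3.79 to 4.86%) with adriamycin. For the 68 members it was 1 in each list, 1.47% (0.0372 to 7.92%), an interval that includes both values. It also includes the 5.78% of all genes untreated, though not the 16.0% with adriamycin. The 1 member, Gm4340, had its peak at the end opposite the start whose CpG were counted. Within this range the members had fewer CpG: 36 of 68 had 0 or 1, against 2166 of 5715 genes. The share over all genes was higher with each step in CpG number, from 0.970% at 0 or 1 CpG to 10.1% at 21 or more untreated, and from 2.08% to 28.0% with adriamycin. Among genes with 6 to 10 CpG, 4.65% had a gene-end peak untreated and 12.04% with adriamycin. The 14 members in that range, 12 Rhox and 2 Pramel genes, had 0 in both lists, which at 14 genes allows up to 23.2%.

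**Figure D5:**
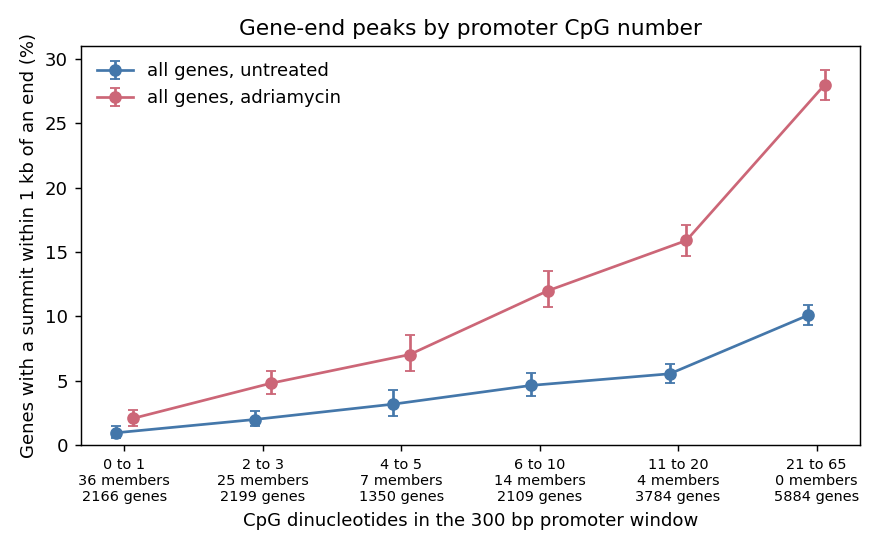
Share of all genes with a summit within 1 kb of an end (%, vertical axis) by the number of CpG dinucleotides in the 300 bp promoter window, in each library, with exact 95% intervals. The labels give the members and genes in each range: 36 and 25 members lie in the 2 lowest ranges, where 0.970% to 4.82% of all genes had such a peak, and 0 in the highest.

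Many promoters of the members also share sequence with other promoters. A promoter was said to share a run when 100 of its bases, in a row and on either strand, also stood in another gene's promoter elsewhere in the genome. This held for 47 of 86 members (54.7%) and for 6.26% of all genes. Of the families, 19 of 27 Rhox, 17 of 38 Pramel, 4 of 5 Obox, 4 of 6 Tdpoz and 2 of 4 Zscan4 promoters shared a run. The other gene of a run was not recorded and need not belong to the same family. Zscan4c and Zscan4f each had a run. The highest identity between 2 Zscan4 promoters, compared base by base without gaps, was 95.7%, and between 2 Obox promoters it was 31.3%. Such a comparison misses copies that are shifted against each other, so a low identity does not show unlike promoters. All 7 Rhox4 promoters shared a run, for example, yet their highest identity was 30.3%. Genes outside the rule with a shared run had a gene-end peak in 2.58% (1.70 to 3.73%) of cases untreated and 3.53% with adriamycin, against 5.99% and 16.5% of all genes without one. The 39 members without a shared run had 0 gene-end peaks in either list, which allows up to 9.03% by the exact interval. Of the 35 that also had at most 5 CpG none had one, against 1.95% and 4.68% of all such genes. How the authors placed reads that fit several copies is not given in the sources used here, and the part that read placement plays in the low counts was not tested.

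The 2 sets of other tandem families also gave shares below those of all genes, 5.78% untreated and 16.0% with adriamycin. Of 111 germline and oocyte genes (Nlrp, Oog, Xlr, Btbd35f, Speer and others) 0 had a gene-end peak untreated and 4 (3.60%, 0.990 to 8.97%) with adriamycin. Of 1465 vomeronasal and olfactory receptor genes (Vmn1r, Vmn2r and Olfr) 9 (0.614%, 0.281 to 1.16%) and 16 (1.09%, 0.626 to 1.77%) had one. Promoters of the sensory genes had a median of 1 CpG and those of the germline set 2. The members' interval (0.0237 to 5.10%) includes each share of the 2 sets other than the 0, whose own interval reaches 3.27%. Of all genes with at most 5 CpG, 1.89% untreated and 4.30% with adriamycin had a gene-end peak. The intervals of the germline set include these 2 values, and those of the sensory set lie below them.

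Outside these families, 21 of 22 listed genes tied to the 2-cell state were found in the gene table, and 1 untreated and 2 with adriamycin had a gene-end peak (4.76% and 9.52%). At the rates of all genes, 5.78% and 16.0%, 21 genes would hold 1.21 and 3.37 genes with such a peak. The exact intervals of the 2 shares reach 23.8% and 30.4% and include the rates of all genes. Counts this small therefore cannot tell these genes from all genes. Smarca5, which encodes a chromatin remodeller, was called in both, with 12 and 20 fragments. Ddit4l had an adriamycin summit 62 bp from an end with 13 fragments. Duxf3, the gene for the activator of the 2-cell program, had summits 1109 and 1132 bp from an end, just outside the window, with 187 and 305 fragments and folds of 8.70 and 10.9. Local background at these summits stood 17.3-fold (untreated) and 26.3-fold (adriamycin) over the genome-wide value, past the limit of 5 for high local background. Zfp809 came next, with summits 5706 and 5703 bp from an end.

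TAATCC stood in 14 of 86 member promoters (16.3%) on either strand, against 6.50% of all promoters. The share was 9.31% in the sensory and 3.66% in the germline and oocyte tandem families. Near copies were each counted, and 1 pair of Rhox3 promoters was identical, so the members are not independent here. Zfp352 and Gm4340 were among the 14, with 9 matches and 1. The other members with a match were 5 Pramel, 3 Tdpoz, 3 Rhox and 1 Obox promoters. A match is a description of letters and no evidence of binding.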

How the data were processed

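DPPA2 ChIP-seq peaks of R1/E cells were analysed in 1 untreated and 1 adriamycin library, grouped by the sample labels. Tools listed in the submitters' processing notes are MACS3 3.0.0b1, Bowtie2 2.5.1, deepTools 3.5.1, FastQC 0.12.1 and SAMtools, with build mm10. Not given in the sources used here are the calling command, filters, the rule for reads that fit several places and any input control. Peaks were called per library. The deposited fold is the caller's ratio of summit over local background within 1 library. The deposited −log10 p and −log10 q belong to the same summit, and the deposited score is −log10 q times 10, without its decimals. Another deposited value is the summit's distance from the peak start.

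Only the autosomes, X and Y entered (123 untreated and 136 adriamycin peaks lay on other contigs, 3 and 6 on the mitochondrial genome). Pileup was the whole number n that gives both fold, (n + 1)/(background + 1), and −log10 p, the Poisson tail above n, within 0.001. This worked for 99.9% of untreated and over 99.9% of adriamycin peaks, and it was tested on simulated data. The genome-wide background was 1.19 and 1.03 fragments. Gene positions and promoters came from RefSeq on GRCm38.p6, the build of mm10. The gene table has no strand, so either end of a gene counted. Peaks were shared at an overlap of 1 bp. Genome density used the length up to the last gene or peak (2720 Mb).

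Members, lists and alternatives were chosen with earlier results of these data known. Named are all members with a summit within 2.5 kb, all Zscan4 and Tcstv genes, Zfp352 and Gm4340. Other members and peaks named, the shared runs, the Gm4340 row, the gene-end stretches of the spans and the pairs of pileups were chosen after values were seen. Python 3.11.15, numpy 2.4.6, pandas 2.3.3, scipy 1.17.1 and matplotlib 3.10.9 were used. Shares have Clopper-Pearson intervals, and counts have exact Poisson ones.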

Additional observations from a re-analysis of the deposited data

How the results depend on the processing

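With 1 library per group, no replicate could be left out. No paired analysis was possible because each group has 1 library and no test was made. The count of 1 member with a gene-end summit within 1 kb, Gm4340, depends on weak peaks in both libraries. In the untreated list it was 0 with a −log10 q of at least 5 (2.10% of all genes) and 0 with a fold of at least 5 (2.14%). In the adriamycin list it was 0 under both (7.12% and 6.94%), and 0 with lists of equal length (5.73%). It was 0 in both lists when starts alone counted and among members without a shared run, an alternative chosen after seeing the data. A window of 2500 bp gave 2 and 4. It stayed at 1 in both lists with a window of 500 bp, with any base of the peak, and without high local background. Within 2.5 kb the untreated count fell to 1 under each of the limits on q and fold. The adriamycin count fell to 0 under these and with lists of equal length. In each setting with a value for all genes, the members' share was below it. Adriamycin summits in the spans numbered 18 with a −log10 q of at least 5 and 14 with lists of equal length. No other setting moved a count of summits in spans or a density ratio (1.26 and 0.810) by over 1.5 times. The weakest peaks in the spans had 8 fragments, and no peak call is no evidence that DPPA2 was absent.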

Other observations

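Of the pseudogenes of the same families, 62 in the gene table, 0 (interval 0 to 5.78%) had a gene-end summit untreated and 1 (1.61%, 0.0408 to 8.66%) with adriamycin. The shares of all protein-coding genes were 5.78% and 16.0%, and the share over all pseudogenes was not computed. The 1 with adriamycin was Usp17le-ps (chromosome 7, 104647249 to 104653154), 74 bp from an end, with the nearest untreated summit 68114 bp away. Within 2.5 kb lay also Obox4-ps27, 1266 bp from an untreated summit, and Obox4-ps29, 1979 and 1974 bp from a peak called in both lists.

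The strongest peak beside any of the clusters lay 294 kb below Tcstv1, at chromosome 13, 119598722 to 119599230 untreated, with a fold of 20.1 and 272 fragments. In the adriamycin list its counterpart at 119598772 to 119599232 had a fold of 20.1 and 228 fragments. Its local background was 10.6 and 10.1 times the genome-wide value. On the X chromosome the pair Pramel and Pramel3 lay in a stretch without peaks, with the nearest summits 2140 kb below and 5120 kb above untreated, and 795 and 1150 kb with adriamycin.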
